A study of Mus musculus with 3 samples.

Results

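The CCGG sites described here had at least 15 reads in undifferentiated mouse embryonic stem cells (ESCs) and were missing from the lists of methylated sites of both day 7 libraries, from differentiated cells left untreated and from differentiated cells treated with pargyline. They were selected on these read counts, by joining the 3 deposited lists on chromosome and position, for CCGG rows of alignment type M (a match to the reference) on the autosomes. Of 969569 such sites listed in at least 1 library, 600407 had 15 or more undifferentiated reads and are called eligible sites. In neither day 7 list were 15564 of them, which is 2.59% of the eligible sites (95% Wilson interval, 2.55 to 2.63%), and these are called lost sites. With the counts of the day 7 libraries, which had more mapped reads, thinned at random to the mapped reads of the undifferentiated library, they numbered 25444. The smallest count in each list was 5, so a lost site may still have had up to 4 reads on day 7, and a missing row does not show that a cytosine was unmethylated. The CCGG motif was present in the GRCm38 reference at all 15564 positions.

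The undifferentiated cells were E14Tg2A, an established mouse ESC line, maintained with leukemia inhibitory factor, a cytokine that keeps ESCs pluripotent. The untreated cells were this line after 7 days of differentiation, in which the cytokine was withdrawn and retinoic acid was given, and the treated cells also received 3 mM pargyline, an inhibitor of the histone demethylase LSD1. The labels call the cells differentiated without giving a day, so the day and the dose are taken from the methods of the study and were not checked in the data. The deposited tables of the day 7 libraries carry another number in their names, whose meaning is not given in the sources used here. All DNA came from 1 line and from whole cultures, in which cells at different stages of differentiation are not separated. Each condition had 1 library, so there is no spread between replicates, and the intervals given cover counting error only.

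In mammals, DNMT3A and DNMT3B place new methyl groups on the cytosines of CpG dinucleotides, DNMT1 copies them when DNA is replicated, and the TET enzymes oxidize them, which leads to their removal. LSD1 takes methyl groups off histone H3 at enhancers that are silenced when ESCs differentiate. MethylRAD relies on FspEI, an enzyme that cuts on both sides of a methylated CpG in its motif and releases a short fragment, so that more reads are counted at a CCGG site when more of its copies are methylated. No transcripts were measured in these libraries, so the state of the cells was not checked against marker genes.

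The autosomal CCGG sites numbered 826593 with 30438782 reads in the undifferentiated list, 837735 with 35286914 reads in the untreated list and 846175 with 24778383 reads in the treated list. The median site had 27, 30 and 23 reads, respectively. Both day 7 lists were thus longer than the undifferentiated list. Both day 7 comparisons share the undifferentiated library. Of the eligible sites, 25101 (4.18%) were not in the untreated list and 36238 (6.04%) were not in the treated list. Outside the lost sites, 9537 eligible sites were missing from the untreated list alone and 20674 from the treated list alone. The remaining 554632 eligible sites were listed in all 3 libraries and serve as comparison sites.

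The lost sites were shallow in undifferentiated cells. Their median was 22 reads, with quartiles of 17 and 30 reads, 1% of them had more than 66 reads, and the deepest had 146. The comparison sites had a median of 39 reads in undifferentiated cells, with quartiles of 25 and 60, and medians of 46 reads in untreated and 32 reads in treated cells. All 703057 CCGG sites listed in the 3 libraries, without a minimum of undifferentiated reads, had medians of 31, 37 and 28 reads. The lost sites together held 397117 reads, 1.30% of the autosomal CCGG reads of undifferentiated cells.

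The part of eligible sites that was lost fell steadily with their undifferentiated reads. It was 7.06% (6.89 to 7.23%) at 15 to 19 reads, 4.31% (4.20 to 4.42%) at 20 to 29 reads and 1.76% (1.70 to 1.82%) at 30 to 49 reads. At 50 to 99 reads it was 0.406% (0.377 to 0.437%), and at 100 or more reads 12 of 28629 sites were lost, or 0.0419% (0.0240 to 0.0733%). Around the minimum there was no step. Just outside it, 1843 of 19191 sites with 13 undifferentiated reads (9.60%) and 1623 of 18183 sites with 14 reads (8.93%) were in neither day 7 list, and just inside it these were 1453 of 17888 sites with 15 reads (8.12%) and 1294 of 17072 sites with 16 reads (7.58%). Below 15 reads, 34899 of 226186 sites were in neither day 7 list. On the side of the day 7 lists, 2782 eligible sites absent from the treated list had exactly 5 reads in untreated cells, and 2006 absent from the untreated list had exactly 5 reads in treated cells.

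Deep sites that were missing from a single day 7 list had few reads in the other. Of 1382 sites with 50 or more undifferentiated reads that were absent from the untreated list, 667 were listed in treated cells, with a median of 8 reads there, whereas sites of this depth listed in both day 7 libraries had a median of 43 treated reads. Of 3031 such sites absent from the treated list, 2316 were listed in untreated cells with a median of 11 reads, against 71 untreated reads at the sites listed in both. These sites were chosen for their absence from a single day 7 list, and most had counts near the minimum of 5 reads in the other. They are a small part of the deep eligible sites, which numbered 173146 at 50 to 99 reads and 28629 at 100 or more.

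At the exact position of a lost site, a row of another motif or alignment type was present for 5 sites in the untreated list and 4 sites in the treated list.

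Most lost sites stood alone. Chained with gaps of at most 1 kb, 15259 lost sites were single, 148 clusters had 2 lost sites and 3 clusters had 3, and there was no larger cluster. Another lost site lay within 1 kb of 305 lost sites (1.96%, interval 1.75 to 2.19%), within 500 bp of 178 (1.14%) and within 5 kb of 1301 (8.36%). Another eligible site, lost or not, lay within 1 kb of 7418 lost sites (47.7%) and of 54.5% of all eligible sites. These shares are a description of spacing and are not read as a sign of isolation. When pairs closer than 33 bp, which can share fragments, were left out, 269 lost sites (1.73%, interval 1.54 to 1.95%) had another within 1 kb.

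Neighbouring eligible sites were most often lost together at distances at which they can share fragments. Of the 280 pairs of adjacent eligible sites 1 to 8 bp apart, 6 had a lost site and in 5 both were lost. Lost sites made up 1.96% of the sites in these pairs. At 9 to 32 bp, both were lost in 13 of 172 such pairs, and a lost site had a lost partner in 14.1% of cases, while lost sites made up 1.34% of the sites in pairs at this distance. Over all eligible sites, at distances beyond the length of a fragment, the partner of a lost site was lost about as often as any site in such pairs. At 33 to 100 bp, both were lost in 6 of 736 pairs with a lost site, and these values were 1.62% and 1.58%. They were 2.74% and 2.27% at 201 to 500 bp, 2.38% and 2.41% at 501 to 1000 bp, and 3.11% and 3.07% at 5 to 20 kb. Sites with 30 or more undifferentiated reads gave another picture beyond 8 bp, from few pairs. At 1 to 8 bp, 1 of their pairs had a lost site, and in this pair both were lost. At 9 to 32 bp, 21 of their pairs had a lost site, and in 0 of them both were lost. At 33 to 100 bp the partner of a lost site was lost in 1.71% of cases, where lost sites made up 0.579% of the sites, from 1 pair with both lost. These values were 1.92% and 0.838% at 101 to 200 bp (2 pairs), 1.97% and 0.839% at 201 to 500 bp (5 pairs) and 1.04% and 0.950% at 501 to 1000 bp (4 pairs). Farther apart, they were 1.56% and 1.04% at 2 to 5 kb (16 pairs), 1.11% and 1.12% at 5 to 20 kb (13 pairs) and 1.94% and 1.26% beyond 20 kb (6 pairs). Whether lost sites of this depth gather within 500 bp cannot be told from these numbers.

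The eligible sites around lost sites that were not lost themselves changed about as much on day 7 as sites farther away. Lost neighbours are left out of these values, which therefore describe retained sites and sites missing from a single day 7 list. Within 33 to 1000 bp of a lost site lay 11301 such sites, of which 1.67% were absent from the untreated and 3.25% from the treated list, and more than 1 kb away these shares were 1.63% and 3.54%. The day 7 change was taken as the log2 ratio of RPM (reads scaled to the mapped reads of each library) to undifferentiated cells. Its median within 33 to 1000 bp was -0.43 in untreated and -0.85 in treated cells, and for the 573382 sites more than 1 kb from a lost site it was -0.41 and -0.85. With raw counts the direction in untreated cells turned, and the medians within 33 to 1000 bp were 0.11 and -0.45. With the median of all comparison sites set to 0, the medians within 33 to 1000 bp were -0.05 and -0.02. Even at 33 to 100 bp, 736 of 752 sites were listed in untreated and 733 in treated cells, with medians of -0.39 and -0.81. The 160 sites within 32 bp of a lost site were lower at -0.57 and -0.98, and 1.88% of them were absent from the untreated and 8.12% from the treated list. They were also shallower, with a median of 30.5 undifferentiated reads against 38 at sites more than 1 kb away, and were not matched for depth.

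Of the clusters with 3 lost sites, those in introns of Myo18b and Gnptab are described. In Myo18b, which encodes an unconventional myosin of striated muscle, the sites on chromosome 5 started at 112868562, 112869302 and 112869912 and had 29, 27 and 53 undifferentiated reads. The eligible site at 112868421, only 141 bp from the first of them, had 18 undifferentiated, 29 untreated and 41 treated reads, and the site at 112870578, 666 bp beyond the last, had 28, 29 and 27. In Gnptab, which encodes an enzyme that tags proteins for transport to lysosomes, the sites on chromosome 10 started at 88405941, 88406106 and 88407078 with 23, 45 and 19 reads. Between them, the site at 88406640 had 10 undifferentiated, 68 untreated and 60 treated reads, while the site at 88407183, 105 bp from a lost site, had 66, 15 and 21. Sites listed in both day 7 libraries thus lay within 1 kb of lost sites in both clusters.

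The fragments of these clusters are shown because no cluster had more lost sites. Each is the 32 bp of the forward strand of GRCm38 centred on the motif, with the CCGG motif in capitals.
Myo18b, chr5:112868548-112868579: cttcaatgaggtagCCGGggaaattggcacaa
Myo18b, chr5:112869288-112869319: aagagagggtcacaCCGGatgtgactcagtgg
Myo18b, chr5:112869898-112869929: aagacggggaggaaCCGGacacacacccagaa
Gnptab, chr10:88405927-88405958: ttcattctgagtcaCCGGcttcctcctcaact
Gnptab, chr10:88406092-88406123: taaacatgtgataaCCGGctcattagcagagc
Gnptab, chr10:88407064-88407095: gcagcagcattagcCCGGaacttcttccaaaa

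Among the 148 pairs, those with the most undifferentiated reads were in or near 7 genes. In the 3′ UTR of Zfp180, which encodes a zinc finger protein, the sites at 24105599 and 24105990 on chromosome 7 had 85 and 68 reads. The site between them at 24105729 had 156 undifferentiated, 126 untreated and 61 treated reads, so that a retained site lay 130 bp and 261 bp from lost sites. An intergenic pair on chromosome 2, 267275 bp from the start of Zfp64, had 20 reads at 169222695 and 96 reads at 169223027. In Rbm20, which encodes a splicing regulator of the heart, a site in an intron at 53850703 on chromosome 19 had 54 reads and a site in an exon at 53851457 had 45. Introns of Jakmip3 held sites with 16 and 83 reads at 139023238 and 139023924 on chromosome 7, and introns of Vac14, the scaffold of a lipid kinase complex, held sites with 74 and 22 reads at 110690004 and 110690108 on chromosome 8. An intergenic pair 6620 bp from the start of Atp8b2, a gene of a lipid flippase, had 50 and 40 reads at 89970002 and 89970252 on chromosome 3. These pairs had 2 lost sites each and differed in whether other listed sites lay near them, with none within 1 kb of the Jakmip3 pair.

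The pair near Edar, the gene of a receptor in the development of hair and teeth, is shown with the sequence between its sites, since the sites were only 167 bp apart and did not share a fragment. They lay 3861 bp from the start of Edar at 58679430 and 58679597 on chromosome 10 and had 63 and 38 undifferentiated reads. The site at 58679256, 174 bp from the first, was retained and had 26 undifferentiated, 69 untreated and 37 treated reads. The sequence is the forward strand of GRCm38, with both CCGG motifs in capitals.
Edar pair, chr10:58679416-58679614: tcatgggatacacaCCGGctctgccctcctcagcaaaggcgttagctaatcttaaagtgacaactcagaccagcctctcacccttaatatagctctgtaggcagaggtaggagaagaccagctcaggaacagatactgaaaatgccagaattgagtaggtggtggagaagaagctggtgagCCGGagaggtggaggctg

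The 10 lost sites with the most undifferentiated reads had 102 to 146 reads and were far from each other. The deepest, with 146 reads, lay in an intron of Ptpa, which encodes an activator of protein phosphatases, at 30426707 on chromosome 2. Introns of Fam189a1 (64859066 on chromosome 7) and of Tsnax (125032157 on chromosome 8), which encodes a partner of the nucleic acid binding protein translin, each held a site with 121 reads. The Fam189a1 site was 208 bp from a site at 64859274 with 89 undifferentiated, 74 untreated and 32 treated reads. Intergenic sites near Prrt3 (113511299 on chromosome 6, 9369 bp from its start) and near Egln3, an oxygen-sensing prolyl hydroxylase gene (54388016 on chromosome 12, 184157 bp away), had 119 and 116 reads. In Csgalnact2, an enzyme gene of chondroitin sulfate synthesis, a site within 1 kb of an annotated transcript start had 110 reads (118111602 on chromosome 6). This site lay 27537 bp from the start of Csgalnact2, so the transcript start near it was another one.

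Sites with 109 reads were found 109578 bp from the start of Klf5, a pluripotency transcription factor gene (99408268 on chromosome 14), and in an intron of Cfap20, which encodes a protein of cilia (95432287 on chromosome 8). The site 640 bp from the Klf5 site, at 99408908, had 68, 44 and 31 reads. Introns of Zfp512, a zinc finger gene (31478315 on chromosome 5), and of Col1a1, which encodes a chain of type I collagen (94944203 on chromosome 11), held sites with 103 and 102 reads. The site 399 bp from the Zfp512 site, at 31477916, had 44, 27 and 19 reads, and the site 186 bp from the Col1a1 site, at 94944389, had 15, 22 and 28. The neighbours differed among themselves. The site 630 bp from the Tsnax site, at 125032787, had 39, 86 and 52 reads, and the site at 31479180, 865 bp from the Zfp512 site, had 69, 75 and 58. Near the Col1a1 site, the site at 94943350 had 17, 22 and 14 reads, the site at 94943368 had 12 undifferentiated reads and was in neither day 7 list, and the site at 94943413 had 16, 8 and 7 reads. The site at 118110692, 910 bp from the Csgalnact2 site, had 35 undifferentiated and 12 untreated reads and was not in the treated list. The other lost sites with 100 or more reads, in introns of Ptprq (101 reads) and Vwa8 (100 reads), are outside the rule for named genes and were added after their values were seen. None of these 12 sites was in a soft-masked repeat.

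The fragments of the 10 deepest lost sites are given in order of their reads, since they carry the largest differences in count. They are again 32 bp of the forward strand of GRCm38 centred on the motif in capitals.
Ptpa, chr2:30426693-30426724: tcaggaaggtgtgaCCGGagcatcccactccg
Fam189a1, chr7:64859052-64859083: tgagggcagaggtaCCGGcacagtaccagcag
Tsnax, chr8:125032143-125032174: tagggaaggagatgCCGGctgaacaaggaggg
Prrt3, chr6:113511285-113511316: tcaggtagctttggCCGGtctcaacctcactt
Egln3, chr12:54388002-54388033: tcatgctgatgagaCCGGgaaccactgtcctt
Csgalnact2, chr6:118111588-118111619: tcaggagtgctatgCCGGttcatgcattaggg
Klf5, chr14:99408254-99408285: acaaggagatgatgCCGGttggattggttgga
Cfap20, chr8:95432273-95432304: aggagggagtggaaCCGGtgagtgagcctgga
Zfp512, chr5:31478301-31478332: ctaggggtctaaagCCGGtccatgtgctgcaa
Col1a1, chr11:94944189-94944220: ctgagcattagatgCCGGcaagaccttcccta

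Lost sites were found more often between genes and less often in exons than comparison sites. Intergenic sites made up 43.5% of the lost sites (42.7 to 44.2%) and 39.7% of the comparison sites (39.6 to 39.8%), and exons outside UTRs held 4.92% (4.59 to 5.27%) and 7.35% (7.28 to 7.42%). Introns held 44.6% (43.8 to 45.3%) of the lost and 45.1% (44.98 to 45.2%) of the comparison sites, and the 3′ UTRs held 1.69% (1.50 to 1.90%) and 2.05% (2.02 to 2.09%). Promoters, within 1 kb of a transcription start, held 824 lost sites, which is 5.29% (4.95 to 5.66%), against 5.65% (5.59 to 5.71%), and no difference was detectable there. In 5′ UTRs outside promoters, 12 of 676 eligible sites were lost (1.78%, interval 1.02 to 3.08%), an interval that includes the 2.59% of all eligible sites. Seen from the eligible sites, 2.82% of intergenic, 2.56% of intronic, 2.43% of promoter and 1.77% of exonic sites were lost. Since lost sites were shallower, the comparison sites were also weighted to the undifferentiated reads of the lost sites, which gave 40.5% intergenic, 44.1% intronic, 7.08% exonic and 6.18% promoter sites. The differences in intergenic and exonic sites were still present after weighting, and the promoter share of lost sites was then the lower.

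Lost sites were farther from transcription starts than comparison sites by a small margin. The median distance to a transcription start was 15856.5 bp for lost and 14783 bp for comparison sites. Of the eligible sites within 250 bp of a start, 2.10% were lost (1.84 to 2.40%), compared with 3.10% (2.90 to 3.30%) at 100 to 200 kb and 3.24% (2.86 to 3.69%) beyond 200 kb.

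Soft-masked repeats, the lower-case bases of the reference, held 2330 lost sites, which is 14.97% (14.4 to 15.5%), against 10.7% (10.6 to 10.7%) of the comparison sites, or 12.3% when these were weighted to the same reads. Of the eligible sites in repeats 3.54% were lost (3.40 to 3.68%), and of those outside repeats 2.48% (2.43 to 2.52%). The gap was present in each depth class up to 49 reads. At 15 to 19 reads 8.34% of the sites in repeats and 6.86% of the others were lost, at 20 to 29 reads 5.29% and 4.17%, and at 30 to 49 reads 2.08% and 1.72%, whereas at 50 to 99 reads these were 0.401% and 0.407%. The fragment of 1 lost site occurred again as an identical 32 bp around another autosomal CCGG motif, and the fragments of the other 15563 did not.

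Lost sites were poorer in G and C than comparison sites. The GC content of the 32 bp centred on the motif had a median of 53.1% (quartiles, 46.9 and 59.4%) at lost and 56.2% (50 and 62.5%) at comparison sites, and weighting left the latter at 56.2%. Of the eligible sites with a GC content of 40% or less, 4.42% were lost (4.02 to 4.85%), and this fell in each class to 1.01% (0.866 to 1.17%) above 70%. In each depth class up to 99 reads the lowest share was again found above 70% GC. At 15 to 19 reads, 6.33% of the sites with 40% GC or less were lost, 9.47% of those with over 45 to 50% and 2.24% of those above 70%, and at 50 to 99 reads these shares were 1.35%, 0.507% and 0.118%. Bases next to the motif followed the same order. With A or T on both sides of CCGG 3.31% of the eligible sites were lost (3.22 to 3.40%), with A or T on a single side 2.51% (2.45 to 2.57%), and with C or G on both sides 2.12% (2.06 to 2.19%). The part of base composition in the loss was not tested.

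CpG content of the surroundings was lower by a small margin. The number of CpGs in the 500 bp centred on each site had a median of 6 at both lost and comparison sites. Its quartiles were 4 and 8 at lost sites and 4 and 9 at comparison sites. The CpG ratio, the CpGs found over those that the C and G content would give, was taken in the 500 bp centred on each site, and windows with a ratio under 0.48 are called low. In high windows the ratio was over 0.75 and the GC content over 55%, and the others are intermediate. Of these classes, low windows held 96.0% of the lost sites (95.7 to 96.3%) and 94.7% of the comparison sites (94.6 to 94.7%). Intermediate windows held 608 lost sites, which is 1.95% (1.80 to 2.11%) of their 31174 eligible sites. High windows held 10 of 581, or 1.72% (0.938 to 3.14%), an interval that includes 2.59%. In windows with 1 to 2 CpGs 3.61% of the eligible sites were lost (3.45 to 3.77%), and with more than 20 CpGs 1.32% (1.09 to 1.60%). Another CCGG motif lay within 32 bp of 2.42% of the lost sites (2.19 to 2.67%) and 4.37% of the comparison sites (4.31 to 4.42%).

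Every autosome held lost sites in a narrow range of shares. The lowest share of eligible sites was 2.38% (2.24 to 2.53%) on chromosome 11, with 966 lost sites, and the highest was 2.99% (2.77 to 3.22%) on chromosome 16, with 635. Chromosome 2 had the most lost sites, 1152 of 46449 eligible sites, or 2.48%.

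Short motifs of transcription factors with roles in ESCs or their differentiation were counted on both strands in windows that reached 150 bp to either side of each site. A match describes only the letters in the window. AGGTCA, the core bound by retinoic acid receptors and other nuclear receptors, was in the windows of 18.9% of the lost (18.3 to 19.5%) and 18.7% of the comparison sites, and AGGTCA with a second copy 5 bases on, which overlaps the former count, in those of 3 lost sites (0.0193%) and 0.0133% of the comparison sites. The GATA motif AGATAA was in 15.5% of the lost (14.9 to 16.1%) and 14.3% of the comparison sites, and the forkhead motif TGTTTAC in 3.98% and 3.88%. Of the SOX motifs, ACAATGG was in 5.01% (4.68 to 5.37%) and 4.18%, and ACAAAGG in 5.88% (5.52 to 6.26%) and 6.17%. Of the E-boxes, CAGATG was in 23.3% (22.6 to 24.0%) and 24.2%, and CAGCTG in 13.5% and 16.4%. Of the eligible sites with CAGCTG 2.16% were lost and of those with ACAATGG 3.07%, on either side of the 2.59% of all eligible sites.

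Near the starts of protein-coding genes, most genes with a lost site had a single one. Of 8589 autosomal protein-coding genes with an eligible site within 1 kb of a start, 396 had a lost site there, and 7 genes had 2. Promoters of all transcripts, which include those of other gene types, held 824 lost sites. These were 2.43% (2.27 to 2.60%) of their 33936 eligible sites, near the 2.59% of all eligible sites. In Mb, the gene of myoglobin, the sites at 77050885 and 77051026 on chromosome 15 had 19 and 36 undifferentiated reads, and 2 of 4 eligible sites were lost. Ccdc69 (55078006 and 55078563 on chromosome 11, 16 and 37 reads) and Apobec4 (152749723 and 152751132 on chromosome 1, 17 and 33 reads), a member of a family of cytidine deaminases, lost both of their 2 eligible sites. Ablim1, an actin-binding protein gene, lost 2 of 9 (16 and 28 reads), and Akt1, which encodes a kinase of growth signalling, lost 2 of 5 (17 and 25 reads). In Slc35e2 the 2 sites were 6 bp apart, at 155600981 and 155600987 on chromosome 4, with 15 reads each, so they can share fragments.

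Over whole genes, the most lost sites were found in long genes with many eligible sites. Of 17747 autosomal protein-coding genes with an eligible site from start to end, 4870 had a lost site. The most were in Gm20388, a gene model of 4434.88 kb that spans many other genes, with 62 of 3305 eligible sites lost (1.88%, interval 1.47 to 2.40%), and in Fgfr2, a fibroblast growth factor receptor gene annotated over 2960.9 kb, with 32 of 1207 (2.65%, interval 1.88 to 3.72%). Camta1, a transcription activator gene, lost 15 of 586 (2.56%), Nav2 12 of 323 (3.72%), Auts2, a gene of neural development, 12 of 352 (3.41%), and Thsd4 11 of 242 (4.55%). Lrmda lost 11 of 249 (4.42%), Rbms3 11 of 280 (3.93%) and Dab1, an adaptor of reelin signalling in neurons, 11 of 284 (3.87%). The intervals of these genes other than Gm20388, which lay lower, included the 2.59% of all eligible sites. Above it was Magi2, a scaffold gene of neuronal synapses, in which 14 of 233 eligible sites were lost (6.01%, interval 3.61 to 9.83%). Magi2 was not the only such gene. Of the 8618 genes with 10 or more eligible sites, 372 had an interval above 2.59% and 5 had an interval below it. In genes with few eligible sites, a few lost sites place the interval above 2.59%, while an interval below it needs many eligible sites. How many such intervals counting error alone would give was not computed, so these counts are not read as a result about the genes. Ccdc81 and Sec11a, named after their values were seen, had the highest share among these genes, with 3 of 10 lost in each (30.0%, interval 10.8 to 60.3%), and 4664 of the 8618 genes had no lost site.

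The gene lists were counted from 10 kb before to 10 kb after each gene, so that each share can be set beside the 2.59% of all eligible sites. At 23 pluripotency genes, 9 of 364 eligible sites were lost (2.47%, interval 1.31 to 4.63%). Esrrb, a nuclear receptor gene of the pluripotent state, had 3 of 99, on chromosome 12 at 86351310 upstream of the gene (23 reads), at 86436288 in an intron (16 reads) and at 86520278 in a 3′ UTR (53 reads). Tfcp2l1, a transcription factor gene of ground-state ESCs, lost 1 of 24, in an intron (118670952 on chromosome 1, 22 reads), and Nanog lost 1 of 5, 9518 bp from its start (122697971 on chromosome 6, 20 reads).

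At 22 genes of retinoic acid metabolism and signalling, 18 of 772 eligible sites were lost (2.33%, interval 1.48 to 3.66%). Ncor1, which encodes a corepressor of nuclear receptors, lost 3 of 28 sites, the deepest with 32 reads upstream of the gene (62466579 on chromosome 11). Rarb, the gene of a retinoic acid receptor that is itself a target of retinoic acid, lost 2 of 51, with 23 reads at 16495119 and 45 reads at 16686642 on chromosome 14, both more than 100 kb from its start.

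The lists of germ layers gave similar shares. At 26 neural genes 16 of 750 eligible sites were lost (2.13%, interval 1.32 to 3.44%). They included 3 of 45 at Pax3, a transcription factor gene of the dorsal neural tube, and 2 of 113 at Ncam1, a neural cell adhesion gene. At Pax6, a transcription factor gene of the eye and brain, 2 of 26 were lost. The Pax6 site with 16 reads lay upstream of the gene, 3754 bp from its start. A Pax6 site with 29 reads lay in a 5′ UTR (105674140 on chromosome 2). At 25 endoderm genes 18 of 864 sites were lost (2.08%, interval 1.32 to 3.27%). They included 3 of 35 at Dab2, an endocytic adaptor gene of extraembryonic endoderm, 3 of 55 at Gata4, a transcription factor gene of endoderm and heart, and 2 of 45 at Cubn, whose exon site at 13334807 on chromosome 2 had 54 reads. At 18 mesoderm and blood genes 14 of 578 sites were lost (2.42%, interval 1.45 to 4.02%). Of these, 6 of 142 were at Runx1, a regulator of blood formation, with 16 to 23 reads each, 4 of 111 were in introns of Flt1, a receptor of vascular growth factors, and 1 of 17 was in an intron of T, the mesoderm gene brachyury, with 40 reads (8439190 on chromosome 17).

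Somewhat higher shares with wide intervals were found at trophoblast and germline genes. At 13 trophoblast genes 9 of 229 sites were lost (3.93%, interval 2.08 to 7.30%), among them 2 of 16 at Tfap2a and 2 of 49 in Tead4, both transcription factor genes, and 1 of 33 in an intron of Elf5, a trophoblast transcription factor gene, with 57 reads (103414562 on chromosome 2). At 17 autosomal germline genes 11 of 277 sites were lost (3.97%, interval 2.23 to 6.97%). Mov10l1, a helicase gene needed for small RNAs that silence transposons, had 4 of 46, of which the sites at 89016069 (35 reads) and 89016331 (22 reads) on chromosome 15 form a cluster, and Tdrd1, a gene of the same pathway, had 2 of 30 and Rnf17 1 of 26. Both intervals included 2.59%.

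At 25 imprinted genes, where methylation can depend on the parent of origin, 20 of 668 eligible sites were lost (2.99%, interval 1.95 to 4.58%). Kcnq1, a potassium channel gene, lost 4 of 143, all in introns, with 16 to 30 reads. Grb10, an adaptor gene of growth factor signalling, lost 3 of 34, the deepest with 42 reads downstream of the gene (11929813 on chromosome 11), and Igf2r, a receptor gene that clears the growth factor IGF2, lost 3 of 46, including an exon site with 28 reads (12715464 on chromosome 17). The alleles were not separated here.

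At 18 genes of DNA methylation and the LSD1 complexes, 18 of 639 eligible sites were lost (2.82%, interval 1.79 to 4.41%). Tet1, the gene of an enzyme that oxidizes methylated cytosine, lost 4 of 51 on chromosome 10. They were an exon site at 62818979 (28 reads), intron sites at 62845127 and 62896930 (17 reads each) and a site within 1 kb of a transcript start at 62894231 (20 reads). The site at 62894231 lay 14765 bp from the start of Tet1, so the transcript start near it was another one. Rcor1, the gene of the CoREST partner of LSD1, lost 3 of 51, the deepest with 61 reads at 111046119 on chromosome 12, and Chd4, a helicase gene of the NuRD complex, lost 2 of 37, including an exon site with 47 reads at 125106669 on chromosome 6. Around the 39 Hox genes, which set position along the body axis, 7 of 231 sites were lost (3.03%, interval 1.48 to 6.12%), with 2 of 11 at Hoxb3 (30 and 26 reads) and 1 site with 39 reads shared by the windows of Hoxc5 and Hoxc8 (102985388 on chromosome 15).

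Ribosomal protein genes, which are active in all cells, served as a list without a role in differentiation. Around 75 autosomal genes, 10 of 714 eligible sites were lost (1.40%, interval 0.763 to 2.56%), with 2 of 18 at Rps15 (16 and 21 reads), 1 of 14 at Rpl19 (34 reads) and 1 of 10 at Rpl13 (24 reads). This was the lowest of the 11 lists and its interval ended just below 2.59%. The other 10 lists had intervals that included 2.59%. The window of 10 kb mattered for the ribosomal and the germline list. Counted from gene start to gene end only, 2 of 98 sites were lost at ribosomal protein genes (2.04%, interval 0.561 to 7.14%), and 9 of 174 at germline genes (5.17%, interval 2.74 to 9.54%). With 50 kb on each side, these were 68 of 3599 (1.89%, interval 1.49 to 2.39%) and 27 of 839 (3.22%, interval 2.22 to 4.64%).

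The opposite change was counted by a rule that differs from that of lost sites. It asked for 15 or more reads in both day 7 libraries and absence from the undifferentiated list alone. The shares of gained and lost sites are therefore not directly comparable. Of 518799 CCGG sites with 15 or more reads in both day 7 libraries, 10213 (1.97%) had no row in the undifferentiated list. As for lost sites, partners were most often shared at the distance of a fragment. In adjacent pairs 1 to 8 bp apart, 93.3% of gained sites had a gained partner, from 56 pairs with a gained site. For lost sites this was 90.9%, from 6 pairs with a lost site. Gained sites made up 19.8% and lost sites only 1.96% of the sites in pairs at this distance. At 9 to 32 bp, 59.1% of gained and 14.1% of lost sites had a partner of their kind. There, gained sites made up 4.27% and lost sites 1.34% of the sites in such pairs. At 33 to 100 bp a gained site had a gained partner in 4.61% of cases, where gained sites made up 1.94% of the sites. Within 1 kb, 5.79% of gained sites (5.35 to 6.26%) and 1.96% of lost sites had another of their kind. When partners closer than 33 bp were left out, these were 1.87% (1.62 to 2.15%) and 1.73% (1.54 to 1.95%), with overlapping intervals.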

How the data were processed

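The authors trimmed the reads, discarded those without a recognition site of FspEI, and mapped the others to GRCm38 with at most 1 mismatch and unique placement; the submitters' processing notes name FastQC 0.11.3 and Bowtie2 2.3.3. The deposited count is the number of reads per site, listed from 5 reads, and the deposited RPM is that count scaled to the mapped reads of the library.

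The 3 lists were joined by position. Sites were annotated with GENCODE M21 basic transcripts in the order promoter (1 kb on each side of a start), 5′ UTR, 3′ UTR, exon, intron, intergenic. Python 3.11.15, numpy 2.4.6, pandas 2.3.3 and SciPy 1.17.1 were used, and the annotation and interval code was tested on simulated data. Shares have 95% Wilson intervals. The protocol names no molecular tags, so PCR copies may count as reads, and no test across conditions was made.

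Named genes were those of the 10 largest clusters (ties by summed undifferentiated reads), the 10 deepest lost sites, up to 10 protein-coding genes each with the most lost sites within 1 kb of a start (at least 2) or from start to end, and up to 3 genes per list with the most lost sites; some of these are not reported here. The lists were pluripotency, retinoic acid, neural, endoderm, mesoderm and blood, trophoblast, germline, imprinted, DNA methylation and LSD1, Hox and ribosomal protein genes. The members and lists were chosen with earlier results of these data known. Fragments of the deepest sites and the weighting of comparison sites by undifferentiated reads were added after seeing the data. Alternatives covered the minimum of reads, alignment types, chromosomes, thinning of day 7 counts at random to the undifferentiated mapped reads, promoter widths, cluster distances, scalings and list windows. Sex chromosomes and CCWGG sites were left out by the rule. CCWGG counts were also not used as a second readout of the lost sites, since most CCWGG rows carry the same count in several lists.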

Additional observations from a re-analysis of the deposited data

How the results depend on the processing

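The number of lost sites depended most on the minimum of undifferentiated reads and on library size. It was 26381 with 10 or more reads, 9683 with 20 or more and 3899 with 30 or more, and 25444 when the day 7 counts were thinned to the undifferentiated mapped reads. This thinning matched mapped reads and not CCGG reads. Before it, the treated list already held fewer autosomal CCGG reads (24778383) than the undifferentiated list (30438782). With these minimums of 10, 20 and 30, the median reads of lost sites were 16, 27 and 38, repeats held 15.9%, 14.2% and 12.1%, and high or intermediate CpG windows 4.73%, 3.67% and 3.57% of the lost sites, against 3.97% as reported. The promoter share was 5.82% with a minimum of 10 reads, 14.5% within 3 kb and 2.79% within 1 kb upstream only, and the exon share was 5.41% with a minimum of 30 reads. Comparison sites, unweighted, had promoter shares of 15.2% within 3 kb and 2.76% within 1 kb upstream only. Without weighting, the promoter share of lost sites was thus the lower within 3 kb, with intervals of 13.95 to 15.06% and 15.11 to 15.30%. It was not the lower with the upstream definition. Weighted shares were not computed for these 2 definitions, so they cannot be set beside the weighted share within 1 kb.

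The share of lost sites with another nearby was 1.14% within 500 bp, 8.36% within 5 kb and 1.73% for those more than 32 bp apart. At other sites within 1 kb of a lost site, the median day 7 change was -0.43 in untreated and -0.85 in treated cells. Raw counts reversed the former to 0.10 and gave -0.45 for the latter, and with the median of comparison sites at 0 they were -0.056 and -0.020. RPM and counts differ by the ratio of mapped reads, so only the difference from distant sites is read here.

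Weighted to the reads of lost sites, a choice made after seeing the data, the comparison sites had shares of 6.18% in promoters, 44.1% in introns, 7.08% in exons, 40.5% between genes, 2.01% in 3′ UTRs, 6.23% in high or intermediate CpG windows, 12.3% in repeats and 20.6% with A or T on both sides of the motif. The other 51 values under the alternatives stayed within the interval of the value reported or, for counts of sites, within 1.5 times. They include all list windows, although with genes alone the interval came to exclude 2.59% for germline genes and to include it for ribosomal protein genes. No paired analysis was possible because each condition had 1 library. Depth limits what absence means, since a site with up to 4 reads is not listed. The causes of these shifts were not tested.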

Other observations

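On the X chromosome, which was left out of the rule, 520 of 11309 CCGG sites with 15 or more undifferentiated reads were in neither day 7 list. This share of 4.60% (95% Wilson interval, 4.23 to 5.0%) lay above that of every autosome, of which the highest was 2.99% on chromosome 16. The X sites were not matched to autosomal sites by undifferentiated reads, with which the lost share fell steeply on the autosomes. The number of X chromosomes in the cells was not analysed here.

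Eligible sites missing from a single day 7 list were shallow in the other. The sites missing from the untreated list alone had a median of 23 undifferentiated reads and 7 treated reads, and those missing from the treated list alone had a median of 25 undifferentiated reads and 9 untreated reads. Some sites near named lost sites were also missing from the untreated list alone. At Col1a1, the site at 94944930, 727 bp from the deep lost site, had 19 undifferentiated and 6 treated reads and was not in the untreated list, while the site at 94943633, listed in both, had 21, 5 and 17 reads. In Rbm20, the site at 53851683, 226 bp from the lost exon site, had 11 undifferentiated and 7 treated reads and was not in the untreated list, while the site at 53852044 had 51, 84 and 62 reads.

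Near Egln3, 47 bp from the lost site with 116 reads, the site at 54387969 had 5 undifferentiated reads and was in neither day 7 list. The sites at 54387037 and 54387048, 979 and 968 bp away, were not listed in undifferentiated cells and had 48 untreated reads each and 62 and 63 treated reads. A position with lost reads and a fragment with gained reads thus lay within 1 kb of each other. Retained sites lay there as well, at 54387481 (28, 59 and 30 reads), 54387588 (37, 26 and 12) and 54388867 (16, 30 and 32).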
